A study of Mus musculus with 173 samples.

Results

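Metallothioneins and glutathione transferases are small cytosolic proteins with which cells bind metals and conjugate reactive compounds. Their levels were followed in single cells of the adult mouse dentate gyrus for 10 genes, Mt1, Mt2, Mt3, Gstm1, Gstm3, Gstm5, Gsta4 and Gstp1, together with Prdx6 and Sod1, which remove peroxides and superoxide. The genes were taken by symbol from a table of 23307 rows, and all 10 are among the 12007 genes that reached 1 TPM (a length-scaled share of the transcripts in a library) in at least 5% of libraries. The study profiled hippocampal neural stem cells that are not dividing, and the cells that arise directly from them. Each library is the RNA of 1 cell from C57BL/6 mice aged 8 to 12 weeks, and no treatment or genotype beyond the strain is given.

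The 172 libraries carry titles of 3 classes, N (26 libraries), R (4) and C (the remaining ones), and the labels do not spell out these letters. A row for a cyan fluorescent protein gene, eCFP, shows that a transgene was part of the reference, but no allele or promoter is named. Its median was 8739 TPM in C, 44.6 in N and 12 in R. The C libraries carried stem cell markers: the mean log2(TPM + 1) of 14 neural stem cell genes had a median of 7.03 and was at least 4 in all but 12 of them, against 5 of 26 N libraries. Of the N libraries 17, of the C libraries 16 and of the R libraries all 4 had a mean of at least 4 in a list of vascular, oligodendrocyte lineage, microglial, erythroid or mature neuronal genes. The mature neuron list lay between 5.60 and 7.42 in the 4 R libraries. The stem cell list was at least 4 in 3 of these, and the astrocyte, microglial and erythroid lists in 1 each. Because the labels name no animal, a class is treated as a single sample without a test, and each SD below is a spread between libraries. Between 1600 and 7192 genes reached 1 TPM per library, and the read depth is unknown.

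Metallothioneins hold zinc and copper ions on clusters of cysteines, and metals and glucocorticoids induce their transcription. Mt1 and Mt2 are made in most tissues and in the brain mainly by astrocytes, and Mt3 is enriched in the brain. Glutathione transferases join the tripeptide glutathione to electrophiles, with mu (Gstm), alpha (Gsta) and pi (Gstp) as cytosolic classes. Prdx6 reduces hydrogen peroxide and phospholipid hydroperoxides with the help of glutathione, and Sod1 is the cytosolic copper and zinc enzyme that turns superoxide into hydrogen peroxide.

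The coding sequences of the metallothioneins are shown because the family is defined by its cysteines, and because related sequences decide how well reads can be told apart. Each sequence below is the coding part of a GENCODE M21 transcript (build GRCm38), 5′ to 3′, with every in-frame cysteine codon (TGC or TGT) in capitals.
Mt1: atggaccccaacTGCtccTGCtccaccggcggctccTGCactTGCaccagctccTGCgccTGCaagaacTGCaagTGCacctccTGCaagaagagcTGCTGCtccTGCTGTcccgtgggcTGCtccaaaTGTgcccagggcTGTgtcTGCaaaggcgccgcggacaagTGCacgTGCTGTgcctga
Mt2: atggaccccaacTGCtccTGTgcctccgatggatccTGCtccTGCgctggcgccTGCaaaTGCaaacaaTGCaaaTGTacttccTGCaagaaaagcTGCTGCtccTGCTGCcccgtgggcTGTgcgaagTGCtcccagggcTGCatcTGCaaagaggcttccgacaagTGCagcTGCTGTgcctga
Mt3: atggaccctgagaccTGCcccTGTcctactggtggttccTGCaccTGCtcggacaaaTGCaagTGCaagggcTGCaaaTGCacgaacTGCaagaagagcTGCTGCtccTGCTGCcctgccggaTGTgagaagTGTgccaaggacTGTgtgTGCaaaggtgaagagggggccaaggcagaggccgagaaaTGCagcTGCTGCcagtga
All 3 hold 20 cysteine codons, in 61 codons before the stop for Mt1 and for Mt2 and in 68 for Mt3. Mt1 and Mt2 were identical at 79.6% of aligned coding bases, Mt1 and Mt3 at 73.7% and Mt2 and Mt3 at 75.3%. No stretch of 50 bases of any Mt1, Mt2 or Mt3 transcript occurred in a transcript of another gene of the table.

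The mu class is less separable. A window of 60 coding bases is shown from the longest coding run that Gstm1 and Gstm3 share, with the bases that differ from Gstm1 in capitals.
Gstm1: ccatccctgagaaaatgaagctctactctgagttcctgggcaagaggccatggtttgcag
Gstm3: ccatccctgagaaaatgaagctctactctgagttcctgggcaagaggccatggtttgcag
Gstm2: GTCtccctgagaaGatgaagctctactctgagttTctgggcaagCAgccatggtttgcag
Gstm4: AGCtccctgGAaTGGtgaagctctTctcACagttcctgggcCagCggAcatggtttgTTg
Gstm5: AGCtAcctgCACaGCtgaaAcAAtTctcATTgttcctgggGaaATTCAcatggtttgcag
Gstm6: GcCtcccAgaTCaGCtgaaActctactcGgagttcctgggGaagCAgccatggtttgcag
Gstm7: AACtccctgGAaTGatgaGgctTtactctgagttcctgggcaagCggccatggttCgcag
The window spans coding bases 389 to 448 of Gstm1. Gstm3 had 0 differences from Gstm1 there, Gstm2 had 7, Gstm7 had 11, Gstm6 had 12, Gstm4 had 16 and Gstm5 had 22. Over the whole coding sequence Gstm1 was 89.5% identical to Gstm3 and 71.4% identical to Gstm5. Of all stretches of 50 bases, 9.36% of those of Gstm1, 15.8% of those of Gstm3 and 51% of those of Gstp1 also occurred in another gene, which for Gstp1 was Gstp2 alone. The share was 0.280% for Prdx6, shared with Prdx6b, and 0 for Gstm5, Gsta4 and Sod1. RSEM, the tool named in the submitters' processing notes, divides reads that match several genes among them by a model. Gstp1 and Gstm3 had the largest shares of such stretches among the 10, and the uncertainty of their values was not measured.

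Within C the 10 genes spanned a wide range of length-scaled levels. By median the order was Mt1 (3357 TPM), Gstm1 (3129), Gstm5 (1435), Prdx6 (1401), Mt3 (1303), Gstp1 (991), Mt2 (817), Sod1 (320), Gstm3 (167) and Gsta4 (4.0). The interquartile ranges of every pair of neighbours in this order overlapped, for example 1226 to 7250 TPM for Mt1 and 663 to 6416 TPM for Gstm1. Together the 10 genes made up a median of 1.62% of all TPM in a C library, with a range from 0.0501% to 5.56%. The median was 0.396% in N and 0.988% in R. A level of 100 TPM, chosen after the values were seen, was reached by a median of 8 of the 10 genes in C, 3 in N and 6 in R.

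Mt1, the stress- and metal-responsive metallothionein, ran from 0 to 23222 TPM in C, with 6 libraries listed at 0 and 130 at 100 TPM or more (91.5%, exact 95% interval 85.7 to 95.6%, which covers counting error only). In N it ran from 0 to 18348 TPM with a median of 356, and 14 of 26 libraries reached 100 TPM (53.8%, 33.4 to 73.4%). The ranges overlapped almost fully, and 2 C libraries lay above the highest N library. Mean log2(TPM + 1) was 10.93 ± 3.04 (SD between libraries) in C and 7.28 ± 4.27 in N, a difference of 3.65. The highest N library was N11, which also held the highest N value of Mt2, Mt3, Gstm1, Gstm3, Gstm5 and Prdx6. Its stem cell list stood at 8.12, against an N median of 3.28. The upper N bounds of these genes, and the counts of C libraries above them, thus rest on a single library with stem cell markers.

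Mt2, which encodes the near copy of Mt1 and is often induced with it, separated the classes more. It was listed at 0 in 16 C libraries (88.7% reached 1 TPM) and in 14 of 26 N libraries (46.2% reached 1 TPM), with medians of 817 and 0 TPM and highest values of 6992 and 3010 TPM. Mt2 was thus above 0 in most C cells and listed at 0 in most N cells, although 5 N libraries reached 100 TPM. Mean log2 values were 8.36 ± 3.50 in C and 3.18 ± 3.89 in N, a difference of 5.17.

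Mt3, the brain-enriched metallothionein, had a median of 1303 TPM in C (0 to 10685) and of 21.2 TPM in N (0 to 4072). In C 83.8% of libraries reached 100 TPM (76.7 to 89.4%), and in N 6 of 26 did (23.1%, 8.97 to 43.6%). Mean log2 values were 9.33 ± 3.36 in C and 4.71 ± 3.81 in N, a difference of 4.62, and 26 C libraries lay above the highest N library.

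Gstm1, a widely expressed mu-class enzyme, was above 0 in every C and every N library. It took a high or a low value with little between: in C 79.6% of libraries lay at 100 TPM or more, 29 libraries lay below 50 TPM and 0 lay between. The C values ran from 1.02 to 15054 TPM, and the N values from 3.22 to 7084 TPM with a median of 23.7. The difference of mean log2 values was 4.56 (10.17 ± 3.47 in C, 5.60 ± 2.91 in N), and 28 C libraries lay above the highest N library. Prdx6 showed the same shape in C, with 81.7% of libraries at 100 TPM or more, 26 libraries below 50 TPM and 0 between.

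Gstm5, a mu-class enzyme known from brain and testis, had a median of 1435 TPM in C (0 to 8674) and 15.4 TPM in N (0 to 7933), a difference of 3.55 in mean log2 values. Gstm3 had a median of 167 TPM in C (0 to 943) and was listed at 0 in 16 of 26 N libraries, a difference of 4.13. Gsta4, the alpha-class enzyme that conjugates the lipid peroxidation product 4-hydroxynonenal, was the least common of the 10 in C. It reached 100 TPM in 46 C libraries (32.4%, 24.8 to 40.8%) and 3 of 26 N libraries (11.5%, 2.45 to 30.2%), was listed at 0 in another 46 C libraries, and reached 8565 TPM at most. Its mean log2 values differed by 2.01.

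Prdx6 had a median of 1401 TPM in C (2.29 to 7843) and 7.08 TPM in N (2.74 to 3660). It reached 100 TPM in 81.7% of C libraries (74.3 to 87.7%) and in 6 of 26 N libraries, and its mean log2 values differed by 4.87 (9.28 ± 2.99 in C, 4.41 ± 2.84 in N).

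Gstp1 and Sod1 were the exceptions. Gstp1, the pi-class enzyme, had a median of 991 TPM in C (0 to 6575) and 1011 TPM in N (0 to 10179.8). Its mean log2 values were 8.03 ± 3.85 and 7.26 ± 4.41, a difference of 0.77, or -0.14 as a log2 ratio of mean TPM. Sod1 had a median of 320 TPM in C (0 to 2326) and 356 TPM in N (0 to 3182). Its difference was 0.93, or -0.31 as a log2 ratio of mean TPM, and for both genes the highest value of all belonged to an N library. The direction for these 2 genes depends on the scale.

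In all, 8 of the 10 genes were higher in C than in N by at least 1 in mean log2 value and 0 were lower, while 9.98% of the 12007 genes were higher and 4.19% lower by that size. The median difference was 3.89 for the 10 genes and 0.17 over all genes kept. The 8 stayed past this size under each of the 8 other settings run for this comparison, but as a log2 ratio of mean TPM the values were smaller: 1.34 for Gstm5, 1.45 for Gsta4, 1.47 for Mt1, 2.22 for Mt2, 2.43 for Mt3, 2.75 for Gstm3, 2.95 for Prdx6 and 3.02 for Gstm1. With TPM rescaled by an upper quartile in each library, 865 genes were higher and 777 lower in place of 1198 and 503, and the members' counts were still 8 and 0. Without the libraries high in a list of another cell type, which left 9 N libraries, Mt1 differed by 4.30, Mt2 by 4.22, Mt3 by 4.29, Prdx6 by 4.65 and Gstm5 by 2.37.

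**Figure D1:**
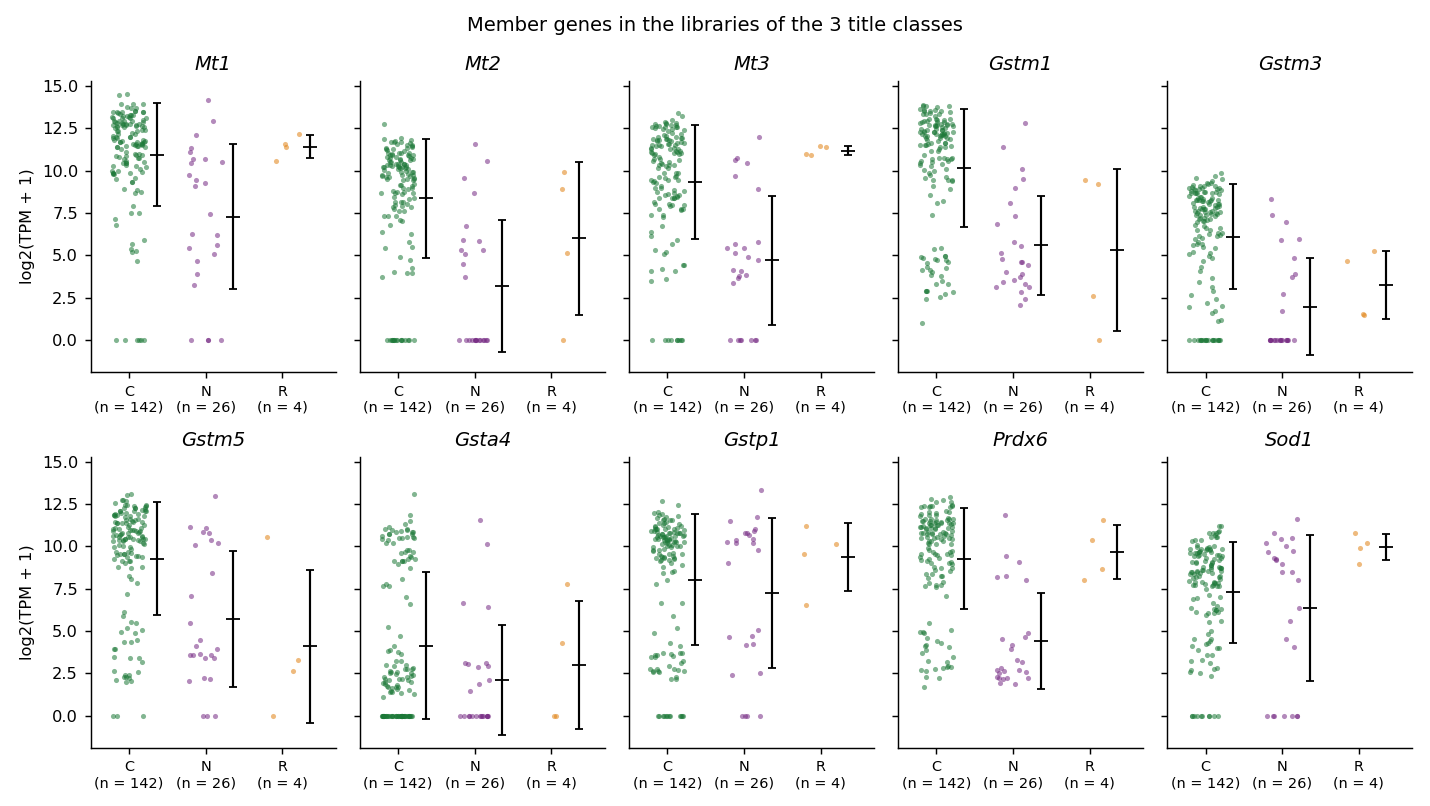
Values of the 10 genes (vertical axis, log2(TPM + 1)) in every library of the title classes C, N (n = 26) and R (n = 4). Each point is 1 library, and the bar beside each group is the mean with its SD between libraries. Mt2, Mt3, Gstm1, Gstm3 and Prdx6 lie mostly high in C and low in N, whereas Gstp1 and Sod1 are widely spread in both, with the highest value in N.

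The 4 R libraries carried neuronal markers, and 3 of them also had a stem cell list of at least 4. All 4 held Mt1 and Mt3, and 2 of them reached 100 TPM of Gstm1. The part of transcripts of other cell types in these values was not tested. Mt1 was 2724, 3078, 1497 and 4487 TPM in R1 to R4, and Mt3 was 2050.4, 1908, 2672 and 2779 TPM. Neither gene was low in any of the 4, and both lay inside the C range. Mt2 was 974, 34.7, 484 and 0 TPM in the same order, so R1 and R3 were high, R2 was low and R4 was listed at 0. Gstm1 followed the same pair, with 709.7, 0, 596 and 5.03 TPM.

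Gstm5 was 5.22, 8.74, 1493 and 0 TPM, high in R3 alone. Gstm3 was 36.7, 1.81, 24.6 and 1.88 TPM, and Gsta4 was 19, 0, 221 and 0 TPM. R1 and R3 were also the 2 R libraries with more than 3000 genes at 1 TPM (3565 and 3838, against 2916 and 2476 in R2 and R4), and the part of this difference in the values was not tested. Sod1 was 937, 1164, 495 and 1783 TPM, above the C median in all 4. Prdx6 was 1339.7, 3029, 408 and 258 TPM and Gstp1 was 2339, 93.4, 756 and 1131 TPM.

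Against C, 3 genes were higher in R by at least 1 in mean log2 value, Sod1 (2.67), Mt3 (1.85) and Gstp1 (1.33), beside 20.9% of all genes kept. Another 5 were lower, Gstm5 (-5.15), Gstm1 (-4.84), Gstm3 (-2.88), Mt2 (-2.35) and Gsta4 (-1.11), beside 22% of all genes. Mt1 (0.49) and Prdx6 (0.39) lay within that size. All ranges overlapped. With only the 2 R libraries of at least 3000 genes, Gstm1 differed by -0.81, Mt2 by 1.06 and Gsta4 by 1.75, so these 3 differences no longer passed that size in the same direction. The other 5 remained past it, among them Sod1 (2.0), Gstm3 (-1.11) and Gstm5 (-2.49). With rescaled TPM Mt3 differed by 0.97 and Gstp1 by 0.47, and as a log2 ratio of mean TPM they differed by 0.12 and -0.11. The median over all genes kept was -0.36. Single libraries decided some of these values: Mt2 differed by -0.35 without R4, Gsta4 by -0.10 without R2 or without R4, and Gstp1 by 0.73 without R1.

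Against N, 7 genes were higher in R, led by Mt3 (6.47), Prdx6 (5.25), Mt1 (4.14) and Sod1 (3.60), beside 23.8% of all genes. Only Gstm5 was lower (-1.60), beside 17.5% of all genes. Gstm5 differed by -0.23 without R4, and Gstm3, one of the 7 (1.25), by 0.58 without R1 and 0.77 without R3. As a log2 ratio of mean TPM, Mt1 (0.78), Mt2 (0.68) and Sod1 (0.91) no longer passed the size, and Gstm3 (-0.87) and Gstp1 (-0.25) were below 0. With rescaled TPM 2037 genes were higher and 2986 lower in place of 2861 and 2097, and 5 members were higher and 2 lower. The comparisons share the libraries of R, of C or of N pairwise, so their differences are not independent of each other.

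Within C, libraries were divided by the cell cycle. A cell was counted as cycling where the mean log2(TPM + 1) of 20 S phase genes or of 22 genes of G2 and mitosis was at least 3, which held for 29 C libraries. This is a range of a score and not a cell type. Mki67, a proliferation marker, belongs to the 22 genes of G2 and mitosis, so its difference follows in part from the rule. Its median was 66 TPM in the cycling cells and 0.11 TPM in the others. The score was within 0.5 of 3 in 7 cells. The 3 just below it had 3149, 3639.6 and 1491 TPM of Gstm1, and the 4 just above it had 22.7, 4387, 5.73 and 2724 TPM. Their Mt1 values were 11579, 11689 and 884 TPM below it and 1175, 7914, 2653 and 4568 TPM above it.

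Gstm1 was the member that differed most between these groups on this scale. Its median was 4529.6 TPM in non-cycling C cells (6.18 to 15054) and 25.6 TPM in cycling C cells (1.02 to 4387). It reached 100 TPM in 100 non-cycling cells (88.5%, 81.1 to 93.7%) and 13 of 29 cycling cells (44.8%, 26.4 to 64.3%). The groups overlapped, with 57 non-cycling cells above the highest cycling cell. Mean log2 values were 6.34 ± 3.30 in cycling and 11.15 ± 2.76 in non-cycling cells, a difference of -4.81.

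Gstm3 differed by -4.38, with medians of 3.58 and 215 TPM, and 12 of 29 cycling cells were listed at 0 against 7 of the non-cycling cells. Mt1 differed by -3.21: its median was 917 TPM in cycling cells (0 to 7914) and 4145 TPM in the rest (0 to 23222), and 29 non-cycling cells exceeded every cycling cell. Mt3 differed by -2.41, with medians of 405 and 2003 TPM. Prdx6 differed by -2.13, with medians of 331 and 1772 TPM, but 22 of 29 cycling cells still held at least 100 TPM. Gsta4 differed by -1.85.

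The other 4 genes lay within a difference of 1, although Mt2 did so under only 9 and Gstm5 under 11 of 14 other settings. Mt2 reached -1.55 with a score of 4 as the bound, and Gstm5 reached -1.38 as a difference of medians. Mt2 differed by -0.91, with medians of 564 and 852 TPM. Gstm5 differed by -0.71 and reached 100 TPM in 24 of 29 cycling cells (82.8%, 64.2 to 94.2%) and 88 non-cycling cells (77.9%, 69.1 to 85.1%). Gstp1 differed by -0.86. Sod1 was the one gene with a higher mean in cycling cells (0.76), with medians of 372 and 301 TPM and 25 of 29 cycling (86.2%, 68.3 to 96.1%) against 71 non-cycling cells (62.8%, 53.2 to 71.7%) at 100 TPM or more.

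Across the 10 genes 6 were lower in cycling cells by at least 1 and 0 were higher, whereas 4.1% of all genes kept were lower and 15.3% higher. The median difference was -1.99 for the 10 genes and 0.05 over all genes. The summed share of the 5 glutathione transferases had a median of 0.226% of TPM in cycling and 0.857% in non-cycling cells, and that of the 3 metallothioneins was 0.218% and 0.80%. The 6 calls held under each of the 14 alternatives with 1 exception: with cells divided by Mki67 or Top2a at 1 TPM (55 against 87 cells), Mt3 differed by -0.57. With rescaled TPM 9 members and 659 genes were lower and 1496 genes higher, in place of 6, 492 and 1834. The division by Mki67 or Top2a gave Mt1 -1.63, Gstm1 -2.68 and Sod1 -0.30.

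**Figure D2:**
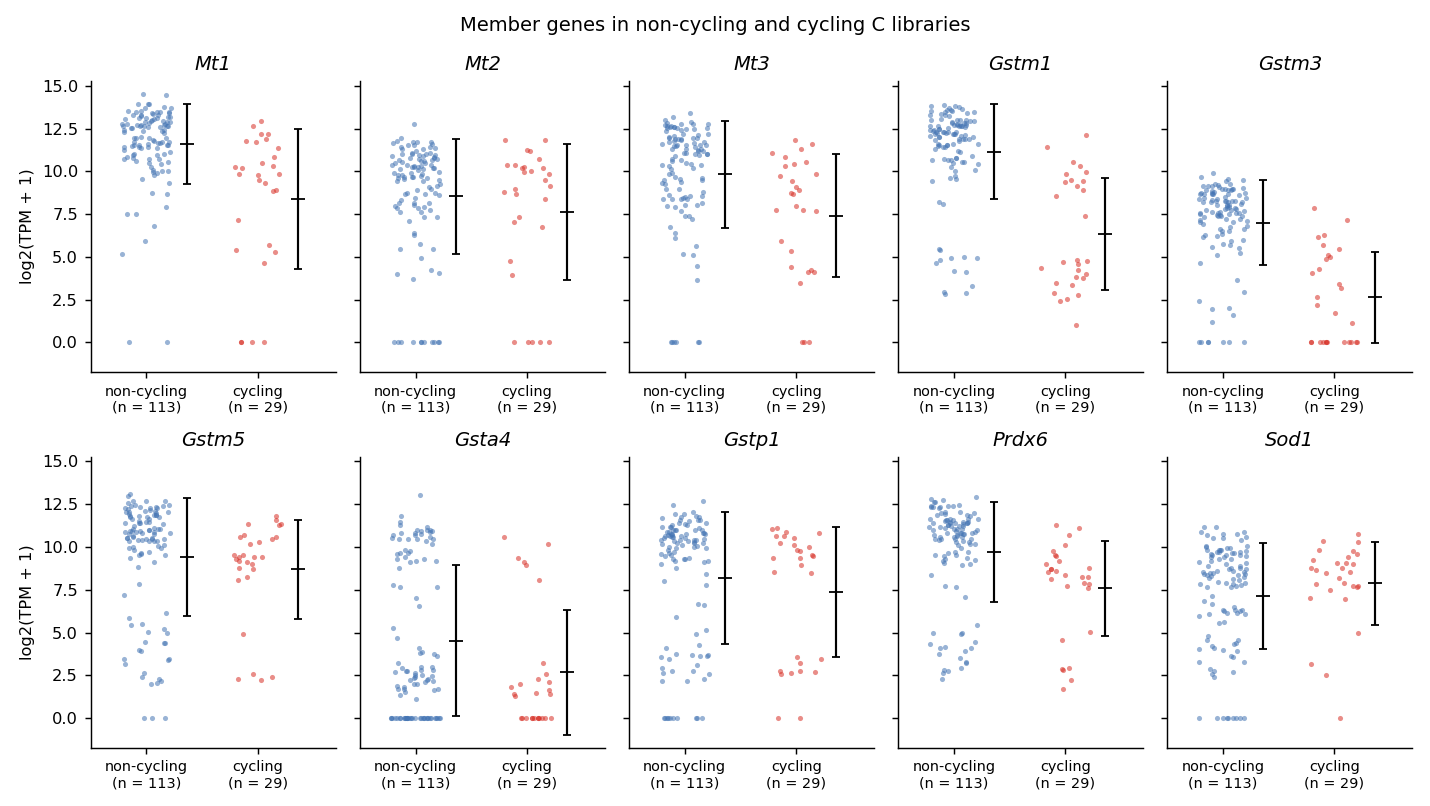
Values of the 10 genes (vertical axis, log2(TPM + 1)) in non-cycling and cycling (n = 29) C libraries. Points are libraries and bars are the mean with its SD. Gstm3 has most cycling cells near the bottom of the scale. Gstm1 is split, with 16 cycling cells above 0 but below 50 TPM and 13 at 100 TPM or more. Mt1, Mt3 and Prdx6 are shifted to a smaller degree than Gstm1 and Gstm3. Gstm5, Gstp1 and Sod1 overlap widely, with 29, 22 and 6 non-cycling cells above the highest cycling cell.

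Cell identity moved with the cycle score. The neural stem cell list had a median of 4.87 in cycling and 7.35 in non-cycling C cells, the astrocyte list 2.0 and 4.09, and the intermediate progenitor list 2.90 and 1.05. The part of these lists in the differences was not tested. Among C cells with a stem cell list of at least 4 (24 of the cycling cells) the differences were -4.56 for Gstm1, -4.20 for Gstm3, -2.38 for Mt1, -2.42 for Mt3 and -1.86 for Prdx6.

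The cycling cells themselves were not uniform. The 11 cells that passed by the S phase list alone had median levels of 656 TPM for Gstm1, 1832 for Mt1, 1365 for Mt3 and 383 for Prdx6. The 18 with G2 and mitosis genes at 3 or more had 23.9, 557, 213 and 317 TPM. Sod1 had medians of 240.2 and 476 TPM in these sets, and every one of the 11 S phase cells held at least 100 TPM of it. In the 29 cycling cells Mt1 followed the stem cell list (Spearman rho 0.84), as did Prdx6 (0.76), Mt3 (0.67) and Gstm1 (0.63), while Sod1 (0.05) and Gstp1 (0.01) did not. In the non-cycling cells the values were 0.15 for Mt1, 0.24 for Mt3, 0.36 for Prdx6 and 0.42 for Gstm1. These coefficients describe cells that share unknown animals and depths and carry no p.

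**Figure D3:**
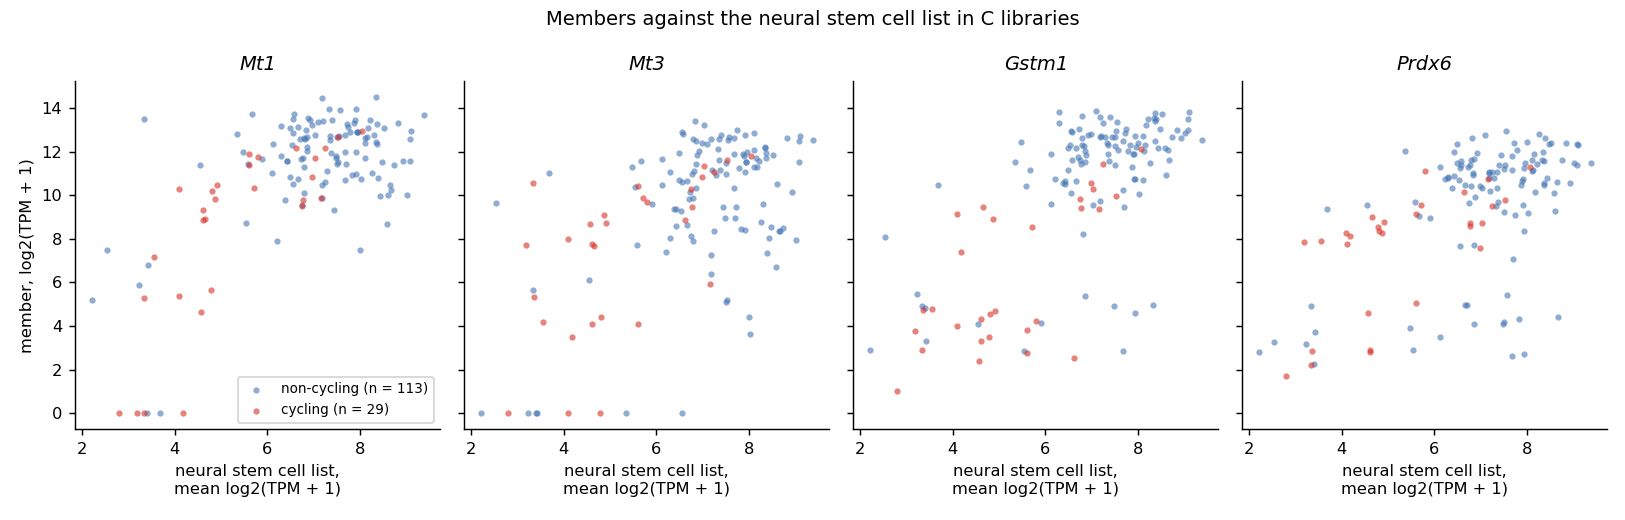
Mt1, Mt3, Gstm1 and Prdx6 (vertical axis, log2(TPM + 1)) against the mean log2(TPM + 1) of 14 neural stem cell genes (horizontal axis) in C libraries. Points are cycling (n = 29) and non-cycling cells. Cycling cells with a low stem cell list have low Mt1, whereas non-cycling cells cluster at the upper right.

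Members of a family did not all vary together. Over all C cells Gstm1 and Gstm3 had a rho of 0.96, and Gstm3 stood at a median of 4.77% of Gstm1 (quartiles 4.20 to 6.03%) in the C cells with at least 100 TPM of Gstm1. Prdx6 and its close copy Prdx6b, 92.9% identical in coding sequence, had a rho of 0.97 and a median ratio of 6.39%. Gstp1 and Gstp2, 98.1% identical, had a rho of 0.81 and a median ratio of 3.68%. The sequences of these 3 pairs overlap, and how far shared reads set their ratios was not tested. Gstm2 also shares stretches of 50 bases with Gstm1 and had a rho of 0.17 with it. Gstm6, which shares such stretches with Gstm3, had a rho of 0.17 with Gstm1. Both Gstm2 and Gstm6 had a median of 0 TPM in C, and the part of shared reads in these coefficients was not tested. Summing the mu class, Gstm1 to Gstm7, left a difference of 3.70 between C and N and of -2.64 between cycling and non-cycling cells.

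The next pairs share no stretch of 50 bases. Gstm1 and Gstm5 had a rho of 0.36, and the ratio of Gstm5 to Gstm1 had quartiles of 18.8 and 87.1%. Mt1 and Mt3 had a rho of 0.72, Mt1 and Mt2 0.52 and Mt2 and Mt3 0.45. Mt2 stood at a median of 20.5% of Mt1 and was listed at 0 in 9 C cells with at least 100 TPM of Mt1, and the reverse held in 1 cell. Gstm1 and Prdx6, from unrelated families, had a rho of 0.68 (0.59 in non-cycling cells alone). Sod1 had a rho between -0.17 and 0.06 with each of the other members, and Gstp1 reached 0.13 at most.

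**Figure D4:**
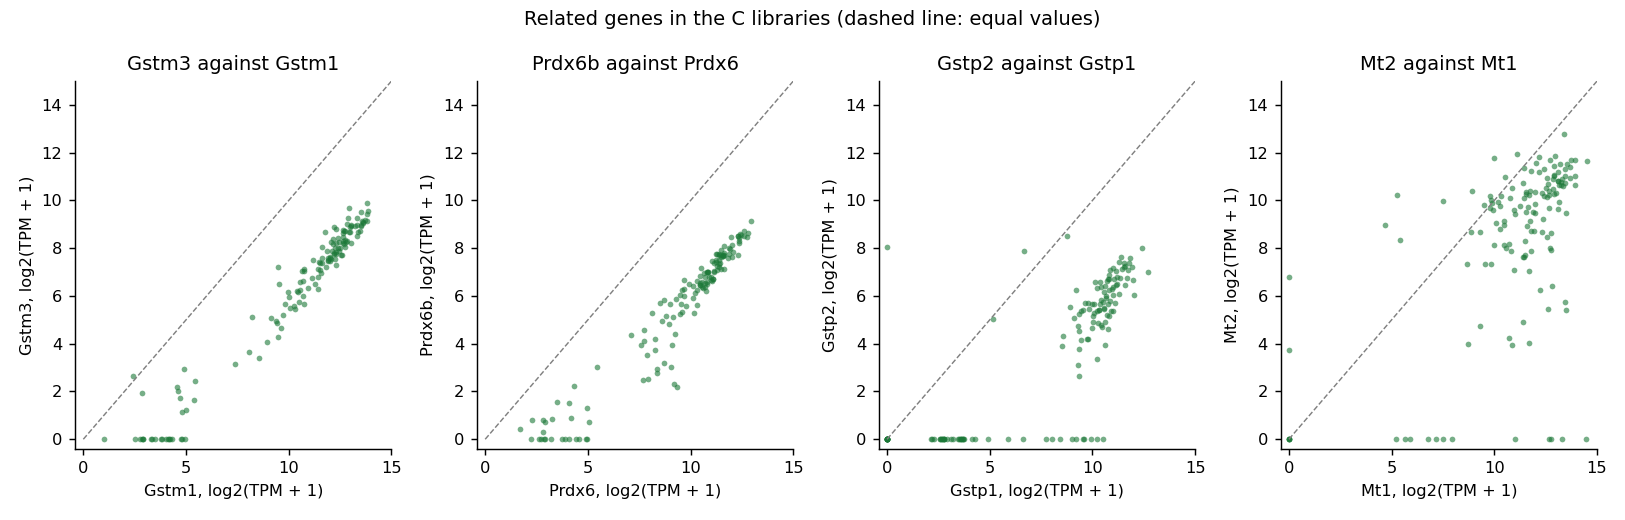
Pairs of related genes in the C libraries, both axes log2(TPM + 1), with a dashed line at equal values. Gstm3 against Gstm1, Prdx6b against Prdx6 and Gstp2 against Gstp1 form bands below the line, and Mt2 against Mt1 forms a wide cloud.

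The genes whose levels were most like those of each member across the C cells were ranked by rho among 2405 genes at 1 TPM or more in at least 50% of them. For Mt1 they were Mt3, Dbi (0.63) and Gstm1 (0.54), and for Mt3 they were Mt1, Dbi (0.68) and Hopx (0.52). For Mt2 they were Mt1, Mt3 and Hopx (0.36). For Gstm1 they were Gstm3, Prdx6 and Aldoc (0.67), for Gstm3 Gstm1, Aldoc (0.69) and Prdx6, and for Prdx6 they were Prdx6b, Gstm1 and Gstm3. Gstm5 came closest to Cpe (0.38), Mt1 (0.38) and Mt3 (0.37), and Gsta4 to S100a1 (0.34), Gpm6a (0.31) and Sbds (0.30). Gstp1 came closest to Gstp2, then to Fxyd1 (0.31) and Arsb (0.29), and Sod1 to Rabepk (0.32), Id2 (0.31) and Gnai2 (0.27). The coefficients of Gstm5, Gsta4 and Sod1, of Mt2 with Hopx and of Gstp1 with Fxyd1 and Arsb are weak for data with many zeros.

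All libraries were also grouped into 8 clusters on genes other than the 10 and the marker lists. Clusters 1, 3, 4 and 7 had high stem cell lists and are called stem-like; cluster 2 (27 cells, all C, 23 of them cycling) was led by mitotic genes such as Cks2 and Ccnb2. Cluster 5 (12 of 15 from N) is called vascular-like for its endothelial (3.40 ± 2.78) and mural lists (3.36 ± 3.48), which varied widely between its libraries. The stem cell list of cluster 5 had a mean of 3.42 ± 0.60. Cluster 8 (5 of 7 from N) was oligodendrocyte lineage-like, and cluster 6 (6 C, 3 N and all 4 R libraries) was left unnamed. Its stem cell list had a mean of 5.12 ± 2.53 and its mature neuron list 4.17 ± 2.03, and the microglial gene P2ry12 was among its leading genes, so its means cover libraries of mixed identity.

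Mt1 had a mean log2 value of 12.47 ± 1.13 in cluster 7 (n = 10), 12.18 ± 1.83 in cluster 3 (n = 24), 11.36 ± 3.39 in cluster 1 (n = 53), 8.42 ± 3.70 in cluster 2 and 7.47 ± 4.64 in cluster 5 (n = 15). Cluster 7 also held the highest mean of Mt2 (10.47 ± 0.87), Mt3 (11.71 ± 0.66), Gstm1 (12.21 ± 1.37), Gstm5 (10.65 ± 1.76), Gsta4 (8.16 ± 3.89), Gstp1 (9.75 ± 2.24) and Prdx6 (10.84 ± 1.16). Gsta4 was at 100 TPM or more in 8 of its 10 cells. In the other stem-like clusters this held for 12 of 23 cells of cluster 4, 14 of 53 of cluster 1 and 5 of 24 of cluster 3. Cluster 4 had the lowest means of Mt1 and Mt3 among the stem-like clusters. Its Mt1 median was 1712 TPM, against 5882 in cluster 1, 6213.5 in cluster 3 and 7004 in cluster 7. All 23 of its cells still held at least 100 TPM of Mt1. Its Mt3 mean, 8.33 ± 2.28, lay below that of cluster 6 (9.43 ± 2.82). Mt2 was at 8.67 ± 2.31 in cluster 4 and 8.46 ± 3.60 in cluster 1. With 6 clusters, the group that shared most cells with cluster 7 had 11.32 for Mt1 and 9.36 for Mt3.

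Mt2 was lowest in cluster 8, at 1.10 ± 1.88, with 5 of 7 libraries listed at 0 and a highest value of 14.8 TPM, while Mt1 had a median of 540.4 TPM there. With 6 clusters, the group closest to cluster 8 had a mean of 3.85 for Mt2. Sod1 had its highest means in cluster 8 (9.34 ± 0.70) and cluster 6 (9.24 ± 1.07). It was at 8.18 ± 1.94 in cluster 4, 7.72 ± 2.67 in cluster 2, 7.70 ± 1.75 in cluster 7 and 6.84 ± 3.14 in cluster 3. Cluster 1 had 6.46 ± 3.73 and cluster 5 the lowest mean, 4.94 ± 4.49. Gstp1 had its lowest mean in cluster 5 (5.71 ± 4.29), and Prdx6 was low in cluster 5 (3.66 ± 1.62) and cluster 8 (5.10 ± 3.51) and at 8.11 ± 3.73 in cluster 6.

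**Figure D5:**
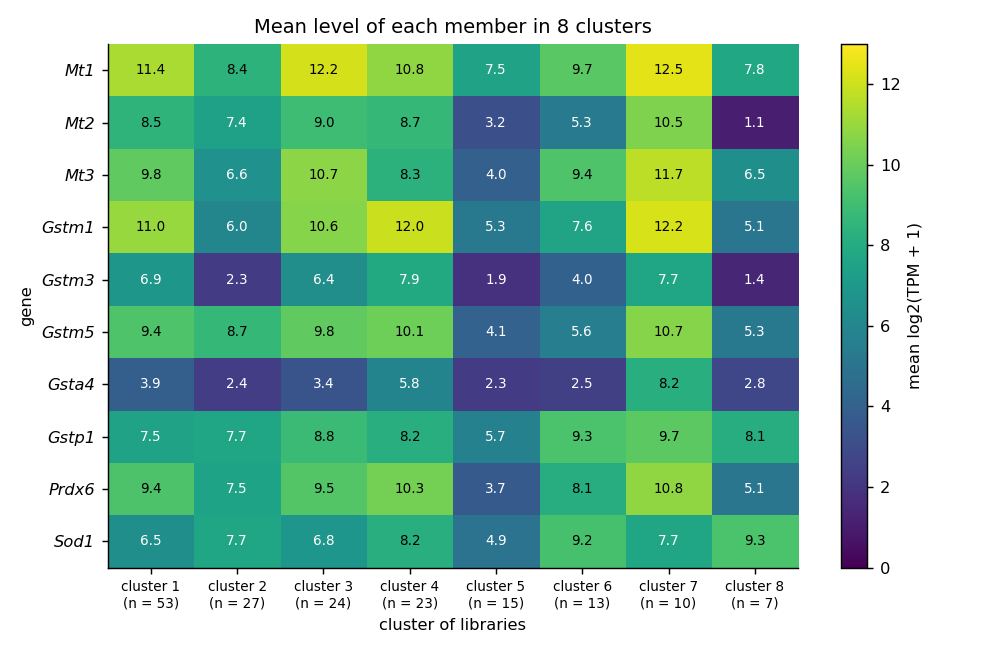
Mean log2(TPM + 1) of each gene (rows) in the 8 clusters (columns, with the number of libraries), on a colour scale from 0 to 13. Cluster 7 has the brightest cells for all genes but Gstm3 and Sod1, and clusters 6 and 8 have the brightest cells for Sod1.

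The promoters of the 3 metallothioneins are shown because metal response elements are the known control sites of the family. Each line gives the 250 bases before the RefSeq start (GRCm38.p6), in the direction of transcription, with matches to the metal response core (TGCACNC or TGCGCNC, either strand) in capitals.
Mt1 promoter, chr8:94178839-94179088, plus strand: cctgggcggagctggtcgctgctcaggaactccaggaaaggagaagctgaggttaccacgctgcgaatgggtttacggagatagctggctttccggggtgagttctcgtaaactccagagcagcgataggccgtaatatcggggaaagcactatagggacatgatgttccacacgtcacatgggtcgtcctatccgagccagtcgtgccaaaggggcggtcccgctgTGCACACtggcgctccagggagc
Mt2 promoter, chr8:94172368-94172617, plus strand: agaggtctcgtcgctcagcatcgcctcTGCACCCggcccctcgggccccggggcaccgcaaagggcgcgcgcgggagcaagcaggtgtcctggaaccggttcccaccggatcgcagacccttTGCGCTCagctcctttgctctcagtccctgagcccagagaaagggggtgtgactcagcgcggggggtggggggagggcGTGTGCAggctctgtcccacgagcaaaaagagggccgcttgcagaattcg
Mt3 promoter, chr8:94152357-94152606, plus strand: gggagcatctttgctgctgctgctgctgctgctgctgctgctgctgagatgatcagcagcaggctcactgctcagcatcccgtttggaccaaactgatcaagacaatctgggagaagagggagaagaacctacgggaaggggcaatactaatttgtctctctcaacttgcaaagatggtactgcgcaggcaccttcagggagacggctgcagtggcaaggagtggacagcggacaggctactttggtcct
In the full 300-base entries, which add 50 bases after the start, Mt1 had 3 matches, Mt2 had 4 and Mt3 had 1, of which 1, 3 and 0 lay wholly before the start. These last counts depend on the RefSeq start used, and other starts were not examined. For Mt1, 2 matches reached past it and are not marked in the bases shown. Gstm5 and each entry of Gstm1 also had 1 match, wholly before the start, and Gstm3, Gstp1 and Sod1 had 0. At least 3 matches occurred in 1.97% and at least 1 in 25.7% of the 32851 entries. The antioxidant response core (TGACNNNGC, either strand) matched once in the entries of Mt2, Gstm5 and Sod1, and at least 1 match occurred in 12.4% of all entries. A match is only a run of letters. Of the 10 genes 8 had an entry, and Gsta4 and Prdx6 had none.

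Other genes of metal handling and of glutathione and peroxide chemistry came from 4 lists, and their counts stand beside 9.98% of all genes higher and 4.19% lower in C than in N, and 15.3% higher and 4.1% lower in cycling cells. Of 14 metal genes kept, 1 was higher in C than in N, Slc39a12 (1.41), a zinc importer, and 1 was lower, Atox1 (-1.86), a copper chaperone. These counts are near the shares over all genes. The list median was -0.11, against 0.17 over all genes. The copper pump Atp7a differed by -0.63. In cycling cells Slc39a12 (-2.16) and the manganese exporter Slc30a10 (-1.12) were lower and Atox1 was higher (1.71), and the list median was -0.12.

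Of 15 other glutathione transferases kept, 2 were higher in C than in N (9.98% over all genes), the membrane-bound Mgst1 (2.83) and the kappa-class Gstk1 (1.28), and 0 were lower, while Gstp2 differed by 0.64. The list median was 0.10. In cycling cells 3 were lower (4.1% over all genes), Mgst1 (-2.61), Gstk1 (-1.10) and Gstm6 (-1.05), and 1 was higher, Gstz1 (1.60), an enzyme of tyrosine breakdown. That list median was -0.51, against 0.05 over all genes.

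Of 17 genes of glutathione synthesis and recycling, 4 were higher in C than in N (9.98% over all genes) and 1, Hagh (-1.03), was lower (4.19%). The higher ones were Gclc (1.40), of the enzyme that starts glutathione synthesis, Glo1 (2.03), which clears methylglyoxal, Slc7a11 (1.91), the cystine importer that feeds glutathione synthesis, and Esd (1.70), a hydrolase of S-formylglutathione. The list median was 0.18. In cycling cells 3 were higher, near the 15.3% over all genes, and 1 was lower: the glutaredoxins Glrx3 (2.76) and Glrx5 (1.17) and Esd (1.05) were higher, the glutaredoxin Glrx2 was lower (-1.31), and the list median was 0.09.

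Of 22 other peroxide, superoxide and thioredoxin genes, 7 were higher in C than in N (9.98% over all genes) and 0 were lower. Park7, a redox-sensing chaperone, differed by 2.28, Gpx8, a peroxidase of the endoplasmic reticulum, by 2.22 and Gpx4, which reduces lipid hydroperoxides, by 2.01. The list median was 0.54. In cycling cells 6 were higher (15.3% over all genes), led by Prdx4 (4.52; median 503 against 0 TPM), the peroxiredoxin of the endoplasmic reticulum, Txn1 (2.62; 464 against 11.7 TPM), the cytosolic thioredoxin, and Prdx2 (1.94; 1423 against 739.8 TPM). Only Gpx8 was lower by that size (-1.42), and the list median was 0.36. The other thioredoxin-dependent peroxiredoxins lay near 0: Prdx1 differed by 0.17, Prdx3 by -0.24 and Prdx5 by -0.26.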

How the data were processed

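The authors deposited 1 table of TPM per gene for single cells of the dentate gyrus. The submitters' processing notes name RSEM and the build mm9, and the aligner, annotation, version and cell filters are not stated. Libraries were made with the NUGEN Ultralow V2 kit, per the labels' protocols. TPM is scaled to 1000000 per library and keeps no depth, so no count test could be run. Of all values 78.5% were listed at 0, and Gapdh was listed at 0 in 2 libraries, so a 0 can be a failed estimate.

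Titles beginning with C, N or R gave the classes (142, 26 and 4 libraries), and the cycle score gave 29 cycling and 113 non-cycling C libraries. The labels hold 173 samples for 172 columns of values: column C27 fits the titles of 2 samples and was kept as a C library of no number. A minimum of 1000 genes at 1 TPM removed 0 libraries, doublets were not called, and genes at 1 TPM in at least 5% of libraries were kept. Values were analysed as log2(TPM + 1), on which differences of low genes are understated, with pandas 2.3.3, numpy 2.4.6, scipy 1.17.1 and scikit-learn 1.9.0, and the difference calculation was tested on simulated data. A difference of at least 1 in mean log2 value was counted as past the fold. Clusters came from Ward's method (8 clusters, 15 components, 2000 variable genes), with 6 or 10 clusters and 30 components as alternatives. Intervals of shares are Clopper-Pearson 95% intervals.

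The named genes were the 10 members, the 3 genes furthest from 0 in each of 4 pathway lists for each of C minus N and cycling minus non-cycling, and the 3 genes of highest rho with each member. Gclc and Hagh in C minus N, and Gstm6 and Esd in cycling cells, were added after their values were seen, to complete short counts. Prdx1, Prdx3 and Prdx5 in cycling cells were also named outside this rule. Members and lists were chosen with earlier results of these data known. The 100 TPM level, the family sums and the 50 TPM bound were added after the values were seen. Sequences come from GENCODE M21 and RefSeq (GRCm38), a later build than mm9, and no table position was converted.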

Additional observations from a re-analysis of the deposited data

How the results depend on the processing

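No paired analysis was possible because the numbers in the titles only name single cells and no comparison has a test. Depth is unknown in TPM, so zeros cannot be weighed by reads. Differences past the fold that changed sign were these. For R minus C, Gstp1 was -0.11 as a log2 ratio of mean TPM and -0.099 as a difference of medians, Mt2 was 1.06 and Gsta4 1.75 with at least 3000 genes (2 R libraries), and the sum of Mt1 and Mt2 was 0.18. For R minus N, Gstm3 was -0.87 and Gstp1 -0.25 as a log2 ratio, Gstp1 was -0.12 as a difference of medians, Gstm5 was 0.059 with at least 3000 genes, and the summed mu class was -0.21. Differences that moved by more than the SD were 9.68 for Mt2 and 7.39 for Gstm3 (C minus N, medians) and 2.55 for Mt3 (R minus N, log2 ratio). Differences within the fold changed sign more often. In C minus N, Gstp1 did so under 2 and Sod1 under 3 of 8 settings. In R minus C, Mt1 did so under 3 and Prdx6 under 4 of 11. In R minus N, Gstm1 did so under 5, reaching 3.47 with at least 3000 genes, and Gsta4 under 2, reaching -1.48 as a log2 ratio. In cycling minus non-cycling cells Gstp1 and Sod1 did so under 1 of 14 each. Among cluster means, 4 moved by more than their SD with 6 clusters (Mt1 to 11.32, Mt2 to 9.22 and Mt3 to 9.36 in cluster 7, Mt2 to 3.85 in cluster 8) and 3 with 30 components (Mt2 to 9.52 and Mt3 to 10.50 in cluster 7, Sod1 to 8.63 in cluster 8). The cause of these changes was not tested.

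Numbers of genes past the fold moved with the pseudocount. At 0.1, C minus N had 2491 higher and 974 lower, and 4459 were lower in R minus C, 3684 in R minus N and 1010 in cycling cells. At 10, C minus N had 448 and 162, R minus C 1593 and 867, R minus N 1806 and 607, and cycling minus non-cycling 869 and 203. Rescaled TPM gave 777 lower in C minus N. It also left 1 member higher in R minus C, and 2 members lower in R minus N, as the pseudocount of 0.1 did. Rescaling moved the median of all genes from 0.17 to 0.07 in C minus N and from -0.18 to -0.35 in R minus N. Leaving out libraries high in another cell type gave no value for R, since all 4 were left out. All other settings, with cell cycle cuts of 2 and 4 among them, changed the sign of no difference past the fold.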
